A study of Mus musculus with 12 samples.

Results

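In 4 of 12 small RNA libraries from the mouse basolateral amygdala (BLA), mmu-let-7g-5p had more tags than mmu-miR-148a-3p, and in the other 8 it had fewer. The libraries were selected on these 2 measured counts alone, and the report describes which miRNA families and which hairpin arms differed between the 4 let-7g libraries and the 8 miR-148a libraries. The mice were male C57BL/6J animals, 10 weeks old. Each library was labelled amygdala, while the design text of the series speaks of retinal profiles. The miR-183 cluster, abundant in retinal photoreceptors, summed to 48.8 to 571 counts per 1e+06 (CPM) in the 4 libraries and 143 to 415 in the 8, and the neuron-enriched miRNAs to 79595 to 114724 and 103345 to 149568. Group C (control) had the chamber and tones without foot shocks, and group F (memory formation) had tones paired with foot shocks. Group E (extinction) was conditioned in the same way and, a day later, heard the tones without shocks. Group RE (retrieval-extinction) heard a single unshocked tone before the same extinction. Each group had 3 mice, with numbers 1 to 3 in C, F and E and 3 to 5 in RE. The let-7g libraries were replicate 2 of C (C2), replicate 1 of F (F1), replicate 2 of E (E2) and replicate 4 of RE (RE4), so that each training group gave 1 library to this set and the other 2 to the miR-148a set.

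A miRNA is cut from a hairpin precursor by the nucleases Drosha and Dicer, and the hairpin can yield a mature strand from its 5′ side (the 5p arm) and another from its 3′ side (the 3p arm). In most hairpins 1 arm is loaded into an Argonaute protein far more often than its partner, and bases 2 to 8 of the loaded strand, the seed, pair with target mRNAs. miRNAs with the same seed form a family with overlapping targets. The let-7 family, which times development in the nematode Caenorhabditis elegans, is abundant in mature mouse neurons. miR-148a belongs to a small family with miR-148b and miR-152 that represses the DNA methyltransferase Dnmt1.

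The mature sequences on which the comparison turned are given from the deposited table, 5′ to 3′ with the seed (bases 2 to 8) in capitals. Of the 388 annotated miRNAs tested, 337 had the same sequence in the RefSeq table for GRCm38.p6. The first set is the let-7 seed family, whose 9 tested 5p strands differed by very unequal amounts between the sets.
mmu-let-7g-5p: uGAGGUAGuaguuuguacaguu
mmu-let-7i-5p: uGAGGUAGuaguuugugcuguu
mmu-let-7f-5p: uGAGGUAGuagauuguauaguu
mmu-let-7a-5p: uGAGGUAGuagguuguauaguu
mmu-let-7c-5p: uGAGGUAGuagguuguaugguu
mmu-let-7b-5p: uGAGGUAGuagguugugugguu
mmu-let-7d-5p: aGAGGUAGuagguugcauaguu
mmu-let-7e-5p: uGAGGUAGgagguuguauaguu
mmu-miR-98-5p: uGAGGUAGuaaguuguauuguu
The second set is the miR-148 seed family, in which miR-148a-3p differed most.
mmu-miR-148a-3p: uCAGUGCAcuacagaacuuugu
mmu-miR-148b-3p: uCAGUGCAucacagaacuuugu
mmu-miR-152-3p: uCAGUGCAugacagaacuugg
The third set holds the miR-29 3p strands, miR-30a-5p of the miR-30 family, and miR-32-5p and miR-92b-3p. The last pair shares a seed but few later bases.
mmu-miR-29b-3p: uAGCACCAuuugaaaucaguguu
mmu-miR-29c-3p: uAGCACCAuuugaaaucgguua
mmu-miR-29a-3p: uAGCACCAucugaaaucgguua
mmu-miR-30a-5p: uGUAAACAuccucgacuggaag
mmu-miR-32-5p: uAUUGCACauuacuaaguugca
mmu-miR-92b-3p: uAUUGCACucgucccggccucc
The fourth set, with miR-30a-5p above, holds both arms of hairpins with a large difference in arm ratio among those with both arms at a mean count of at least 50.
mmu-miR-136-5p: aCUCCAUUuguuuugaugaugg
mmu-miR-136-3p: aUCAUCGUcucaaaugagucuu
mmu-miR-434-5p: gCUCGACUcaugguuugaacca
mmu-miR-434-3p: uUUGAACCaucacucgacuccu
mmu-miR-30a-3p: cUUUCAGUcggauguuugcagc
mmu-miR-132-5p: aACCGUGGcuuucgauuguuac
mmu-miR-132-3p: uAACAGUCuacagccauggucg
mmu-miR-361-5p: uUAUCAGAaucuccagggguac
mmu-miR-361-3p: uCCCCCAGgugugauucugauuugu
The fifth set is the remainder of the largest differences in either direction.
mmu-miR-676-3p: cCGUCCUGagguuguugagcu
mmu-miR-125a-5p: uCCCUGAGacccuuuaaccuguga
mmu-miR-135a-5p: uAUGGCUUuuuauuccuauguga
mmu-miR-423-5p: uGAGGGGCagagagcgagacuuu
mmu-miR-24-2-5p: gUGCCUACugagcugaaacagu
mmu-miR-1298-5p: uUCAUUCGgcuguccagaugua
mmu-miR-431-5p: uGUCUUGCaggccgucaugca
mmu-miR-1981-5p: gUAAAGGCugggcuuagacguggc
mmu-miR-218-5p: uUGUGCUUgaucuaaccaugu
mmu-miR-381-3p: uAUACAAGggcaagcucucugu

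let-7g-5p took 12.9% to 16.1% of the counts in the let-7g libraries and 9.51% to 11.2% in the miR-148a libraries. miR-148a-3p took 1.79% to 2.36% and 12.7% to 15.4%. The ratio of the first count to the second was 6.09 in C2, 5.65 in F1, 6.81 in E2 and 9.03 in RE4, and 0.656 (C1) to 0.885 (C3) in the other 8. The members nearest the threshold were F1 at 5.65 just inside and C3 at 0.885 just outside, and no library lay between them. Since these counts chose the sets, the values are a description and no test was made of any difference between the sets.

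**Figure D1:**
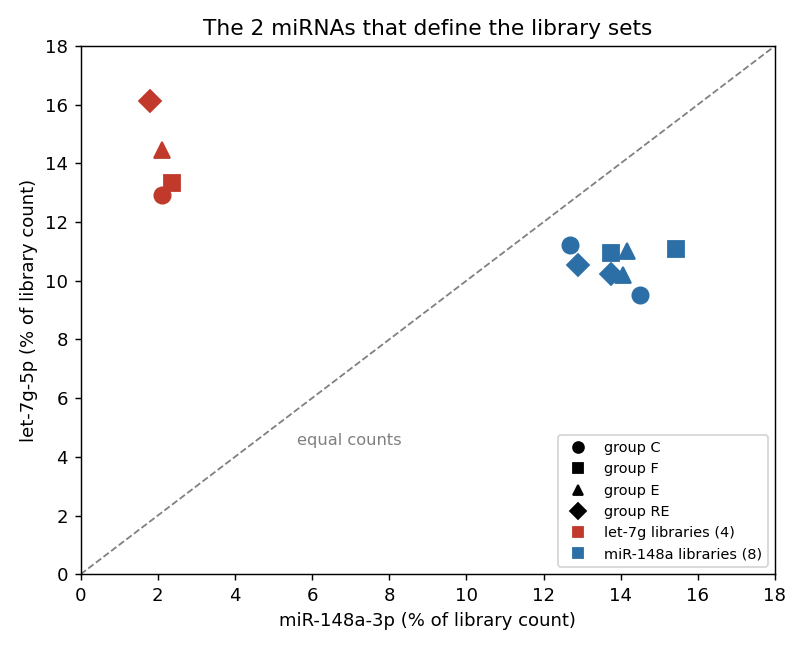
Share of the library count taken by let-7g-5p (vertical axis, %) against that of miR-148a-3p (horizontal axis, %) in each of 12 libraries; marker shape gives the training group, colour the library set, and the dashed line equal counts. The 4 let-7g libraries, 1 from each training group, lie at 1.79% to 2.36% miR-148a-3p and the other 8 at 12.7% to 15.4%.

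The total count, with repeated lines counted once, was 1304007 to 1694940 in the let-7g libraries and 1093194 to 2353896 in the miR-148a libraries, and 606 to 670 and 586 to 678 miRNAs had at least 1 tag, so neither depth nor detection separated the sets. Of 1060 miRNAs, 431 passed the filter on low counts and 413 of them had a tag in every library. Levels are given as counts per 1e+06 of the scaled library (CPM), and the difference is the mean log2 CPM of the 4 let-7g libraries minus that of the 8 miR-148a libraries. The first principal component of these levels, which separated the sets, held 63.8% of the variance and the second 9.01%. Pearson correlations of log2 CPM between libraries were 0.976 to 0.987 among the 4, 0.979 to 0.991 among the 8 and 0.924 to 0.952 between the sets, as a description over miRNAs that share each library. In bulk tissue, fewer cells of a type and less RNA per cell cannot be told apart.

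A miRNA was counted as higher or lower where the difference was at least 1 in size and the levels of the 2 sets did not overlap. By this count 44 of the 431 miRNAs (10.2%) were higher in the let-7g libraries and 54 (12.5%) were lower, 98 in all (22.7%), and the ranges of 180 (41.8%) did not overlap whatever the size. With library totals in place of the trimmed-mean scaling, which moved the median difference of all miRNAs from 0.03 to 0.19, the split was 67 higher and 40 lower, and with the authors' normalized values it was 62 higher and 33 lower, with a median of 0.26. The median SD of log2 CPM within the sets was 0.27. Among the 196 miRNAs with a mean of at least 100 CPM, 17 were higher and 30 lower, so the differences were not confined to rare miRNAs. In 59 of the 98 the difference was at least 1 in size inside each of the 4 training groups.

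The training groups, whose labels did not enter the rule, accounted for a smaller share of the variance than the library sets. The sets were chosen from counts of these same libraries, and that choice favours a large share for them. The shares are therefore a description and cannot rank training against the split into sets. The share of the variance of log2 CPM between the sets (1 degree of freedom) had a median of 53.9% over the 431 miRNAs, against 13.8% between the 4 training groups (3 degrees of freedom), and exceeded 50% in 226 miRNAs. In the edgeR quasi-likelihood test over the 4 training groups, 0 of 431 miRNAs (0.0%) had an adjusted p under 0.05, with a smallest adjusted p of 0.540, and 12 (2.78%) had an unadjusted p under 0.05. DESeq2 called 3 miRNAs, miR-1298-3p, miR-184-3p and miR-200b-3p. None of the 98 miRNAs counted between the sets was among the 12. Each training group held libraries of both sets, so a difference between the sets widened the spread within every group. Without a term for the library set, the missing overlap cannot show whether miRNAs that differ by set and by training are distinct. With a term for the library set, the common dispersion of edgeR fell from 0.184 to 0.0294, 68 miRNAs (15.8%) had an unadjusted p under 0.05, of which 14 were among the 98, and 1 passed the adjustment, miR-143-3p, with an edgeR adjusted p of 0.0387. These 4 miRNAs and those of the next sentence are named for the test result alone. The count without the low-count filter was 8, which included miR-200a-3p, miR-200b-3p, miR-200c-3p and miR-429-3p, epithelial miRNAs.

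In the let-7 family 7 strands were counted as higher in the let-7g libraries, but let-7g itself was not among them. The seed family took 41.1% to 48.6% of the counts in the 4 libraries and 25.7% to 29.1% in the 8, shares that include let-7g-5p, whose count entered the rule. With let-7g-5p and miR-148a-3p left out of both the family and the total, the shares were 33.2% to 39.6% and 20.6% to 23.6%. Of the 17 tested of 22 listed let-7 strands the 7 were higher and 0 lower, beside 10.2% and 12.5% of all miRNAs, and the median difference was 0.86 against 0.03 over all. let-7g-5p entered the rule. It was at 104929 CPM in C2, 126138 in F1, 128721 in E2 and 172228 in RE4, against a lowest, median and highest of 98993, 110784 and 124964 CPM in the 8. The scaled levels of the sets overlapped, with C2 inside the range of the 8, and the difference was 0.25. It was 0.10 without RE4, 0.40 without C2, 0.42 with library totals and 0.49 with the authors' values. let-7i-5p, the other abundant member at this end, overlapped too, with a difference of -0.24.

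let-7a-5p, identical in sequence to nematode let-7, was at 30149.9 CPM in C2, 37732 in F1, 36550.5 in E2 and 44058 in RE4 and at a lowest, median and highest of 8872, 10784 and 12328 CPM in the 8. The lowest of the 4 was above the highest of the 8, and the difference was 1.80, with SDs of 0.22 within the 4 and 0.17 within the 8. Within the training groups it was 1.42 in C, 1.93 in F, 1.91 in E and 1.94 in RE. let-7e-5p, at 13607 to 19329.6 CPM against 3909.9 to 5577 CPM, differed by 1.73. let-7d-5p (difference 1.60), let-7b-5p (1.48) and let-7c-5p (1.06) were also counted as higher, and let-7c-5p fell under the size limit without RE4, at 0.93. let-7f-5p (0.86) and miR-98-5p (0.74) did not overlap between the sets but stayed under the limit of 1.

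Members that differ by 1 or 2 bases outside the seed had unequal differences in some pairs and close ones in others. Over all families, pairs 1 base apart had gaps from 0.0007 (miR-27b-3p and miR-27a-3p) to 1.45 (miR-135b-5p and miR-135a-5p). Most of these pairs were closer than let-7c-5p and let-7a-5p. Positions are counted from 1 at the 5′ end, with the base of the first-named miRNA first. let-7f-5p and let-7a-5p differ at A12G, and their differences were 0.86 and 1.80. let-7c-5p and let-7a-5p differ at G19A, with differences of 1.06 and 1.80. let-7g-5p and let-7a-5p differ at U12G and C18U, with differences of 0.25 and 1.80. By contrast let-7e-5p and let-7a-5p, which differ at G9U, were close, at 1.73 and 1.80. Reads of relatives so close can be assigned to one another in alignment, and the effect of this on the differences was not tested.

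Neighbouring let-7 genes were alike in part. let-7e and miR-125a lie on chromosome 17 near miR-99b (GRCm38.p6, plus strand, let-7e-5p at chr17:17830366-17830387 in an intron of Spaca6 and miR-125a-5p at chr17:17830817-17830840 in an exon of Spaca6), and their 5p strands differed by 1.73 and 1.80, against 0.57 for miR-99b-5p. let-7a-1, let-7f-1 and let-7d lie on chromosome 13 in exons of the long noncoding RNA 6720427I07Rik, on the minus strand, with let-7a-5p at chr13:48538239-48538260 and let-7d-5p at chr13:48536078-48536099. let-7a-5p and let-7d-5p were counted as higher, but let-7a-5p and let-7f-5p each come from more than 1 hairpin, whose tags the table does not separate. let-7g-5p is at chr9:106178846-106178867 on the plus strand in an intron of Wdr82.

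The let-7 3p strands, the partners that are loaded less often, were spread about as widely as the 5p strands, from -0.57 to 1.38 against -0.24 to 1.80. let-7c-1-3p (1.38) and let-7e-3p (1.31) were counted as higher, at 16.4 to 24.6 CPM against 5.56 to 9.27 CPM and 68 to 90.5 CPM against 24.1 to 41.3 CPM. The other 6 ran from let-7f-1-3p, the lowest, to let-7b-3p at 0.87. The medians were 0.54 over the 8 strands of the 3p arm and 1.06 over the 9 of the 5p arm.

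In the miR-148 and miR-152 family 2 of 5 tested strands were counted as lower, beside 12.5% of all miRNAs, and 1 of the 2, miR-148a-3p, chose the sets. miR-148a-3p, which entered the rule and is at chr6:51269829-51269850 on the minus strand in no annotated host gene, was at 17217 CPM in C2, 22341 in F1, 18889.7 in E2 and 19074 in RE4 and at a lowest, median and highest of 130590.0, 141160.0 and 174438 CPM in the 8. The difference was -2.90. miR-148b-3p differs from miR-148a-3p at C9U and U10C. It was at 3458 CPM in C2, 3830.0 in F1, 4065 in E2 and 4724 in RE4 against 3972, 4728 and 5320.4 CPM, so the sets overlapped, and the difference was -0.25 (-0.07 with library totals, -0.01 with the authors' values and -0.13 without C2). miR-152-3p, in an intron of Copz2, was at 307 to 473 CPM against 532 to 827 CPM, ranges that did not overlap, with a difference of -0.77. miR-148a-5p (-1.04) was the other strand counted as lower, and miR-152-5p lay just outside the limit at -0.97 and past it, down to -1.06, without C3, F2, F3, E2 or RE3. Without E2, miR-148a-5p passed to the other side at -0.92.

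Over all families, members with the same seed often differed by unequal amounts. Of 41 families with at least 2 tested members, which held 112 miRNAs, 27 had no member counted and 1 had every member counted in the same direction. That family was miR-24-2-5p and miR-24-1-5p, at -3.25 and -3.20. In the 14 families with at least 3 members the median SD of the differences within a family was 0.65, against 0.99 over all annotated miRNAs. Among these 14 families the 4 with the widest range were miR-29, the family of miR-25, miR-32 and miR-92, miR-148 and miR-30. The width of the miR-148 family rests on miR-148a-3p, whose count chose the sets. Its other members, miR-148b-3p and miR-152-3p, were at -0.25 and -0.77.

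**Figure D2:**
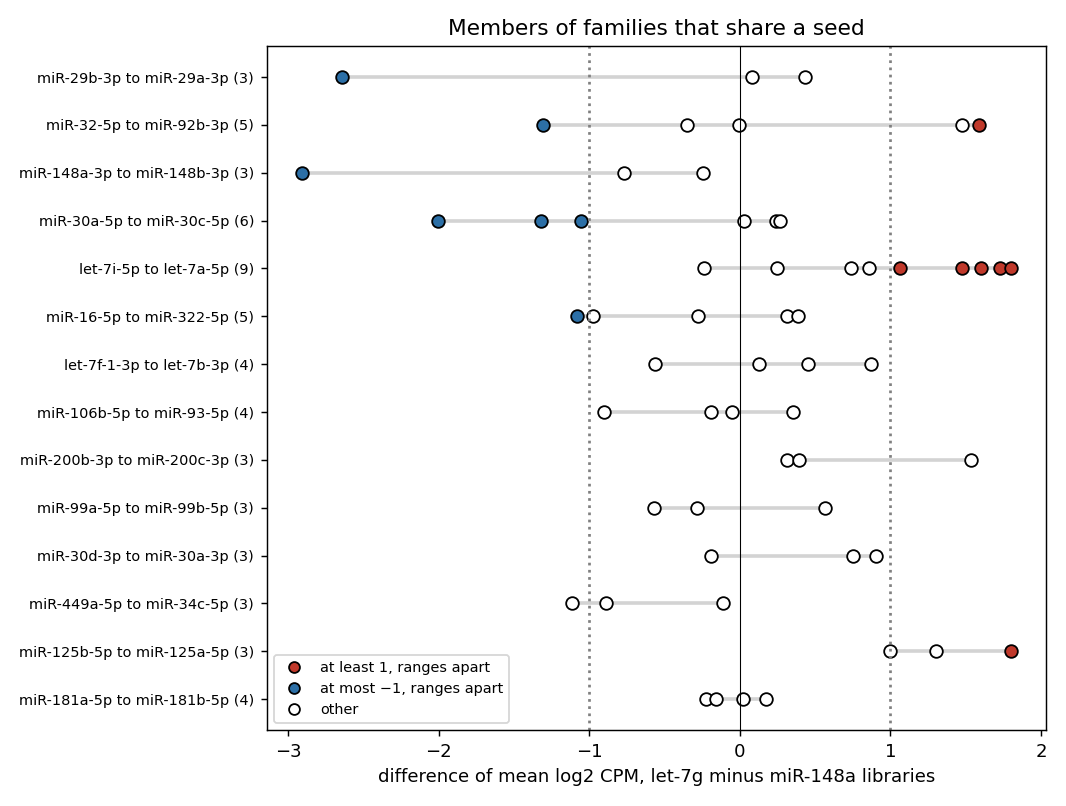
Difference of mean log2 CPM, let-7g minus miR-148a libraries (horizontal axis), for each member (points) of the 14 seed families with at least 3 tested members, with families named by their lowest and highest member and their number of members in brackets. Filled points are counted as higher or lower, dotted lines mark 1 and -1, and the miR-29 family runs from -2.64 to 0.43 while the miR-181 5p family stays between -0.23 and 0.18.

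In the miR-29 family, which represses collagens and the DNA methyltransferases Dnmt3a and Dnmt3b, miR-29b-3p was at 349 CPM in C2, 355 in F1, 331 in E2 and 273 in RE4 and at 1738, 1995 and 2613 CPM (lowest, median and highest) in the 8. The sets were far apart, and the difference was -2.64. miR-29a-3p was at 4914 CPM in C2, 5195 in F1, 5175 in E2 and 5197 in RE4 against 3428, 3791 and 4424 CPM. Here the 4 were the higher, without overlap, at a difference of 0.43, and miR-29c-3p overlapped at 0.08. miR-29a and miR-29b-1 come from the same cluster on chromosome 6, and the tags of miR-29b-3p also come from miR-29b-2 on chromosome 1. There miR-29b-2 and miR-29c both lie in exons of A330023F24Rik. The part of either locus in the difference was not tested.

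The family of miR-25, miR-32 and miR-92 was the only one with members counted in both directions. miR-92b-3p, at 1325 CPM in C2, 1625 in F1, 1493 in E2 and 1538 in RE4, lay above every one of the 8, at 409.7 to 549 CPM, with a difference of 1.59. miR-32-5p lay below them, at 14.6 to 42.7 CPM against 56.6 to 104 CPM, with a difference of -1.30. miR-25-3p, of the miR-106b cluster, overlapped, at -0.003. The remaining members, miR-92a-3p (1.48) and miR-363-3p (-0.35), were not counted, the first because its levels overlapped.

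In the miR-30 family 3 of 6 tested 5p strands were lower, beside 12.5% of all miRNAs, and the other 3 were not. miR-30a-5p was at 2564 CPM in C2, 2786 in F1, 3899.7 in E2 and 3968 in RE4 against 9926, 12445 and 22831 CPM in the 8. These levels did not overlap, and the difference was -2.00. miR-30e-5p (-1.32), which differs from miR-30a-5p at C13U, and miR-30d-5p (-1.05), at U12C, were counted as lower as well, the last one only with C2 in the set, since without it the difference was -0.96. miR-30b-5p (0.03), miR-30c-5p (0.27) and the neuronal relative miR-384-5p (0.24) were close to 0. The 7 tested 3p strands of the family lay between -0.62 and 0.91, and none was counted, although miR-30a-3p was at 1.13 without C2.

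Families that kept together included the 4 miR-181 5p strands (-0.23 to 0.18), miR-103-3p and miR-107-3p (-0.24 and -0.31) and miR-26a-5p and miR-26b-5p (0.16 and 0.00). In the pair miR-135b-5p and miR-135a-5p, which differ at C11U, the first stayed (0.14) and the second was higher, at 293 CPM in C2, 286 in F1, 161 in E2 and 194 in RE4 against 56.1 to 102 CPM, with a difference of 1.59. In the miR-125 seed family 1 of 3 was counted as higher, miR-125a-5p, at 1525 to 1999 CPM against 427 to 575 CPM (1.80). miR-125b-5p, at 4089.6 to 5086 CPM against 1928 to 2660.2 CPM, did not overlap and fell at the limit itself, at 0.995, and past it without F1, F2 or E2, at up to 1.01.

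The arms of a hairpin, which are cut from the same precursor, did not keep their ratio in many cases. The ratio is the 5p count over the 3p count in each library and does not depend on how libraries are scaled. Of 122 hairpins with both arms tested, 36 (29.5%) had a ratio that differed by at least 1 on the log2 scale without overlap between the sets, 17 towards the 5p arm and 19 towards the 3p arm in the let-7g libraries. The 36, and the 17 towards the 5p arm, include miR-148a, whose 3p count entered the rule. The median size of the difference in ratio was 0.71. In 27 hairpins 1 arm alone was counted as higher or lower, in 10 both were counted in the same direction, in 3 in opposite directions and in 82 neither. Over the 122 hairpins the differences of the 2 arms had a Pearson r of 0.20 and a Spearman rho of 0.18, and 27 of these hairpins have an arm whose sequence another hairpin also yields.

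**Figure D3:**
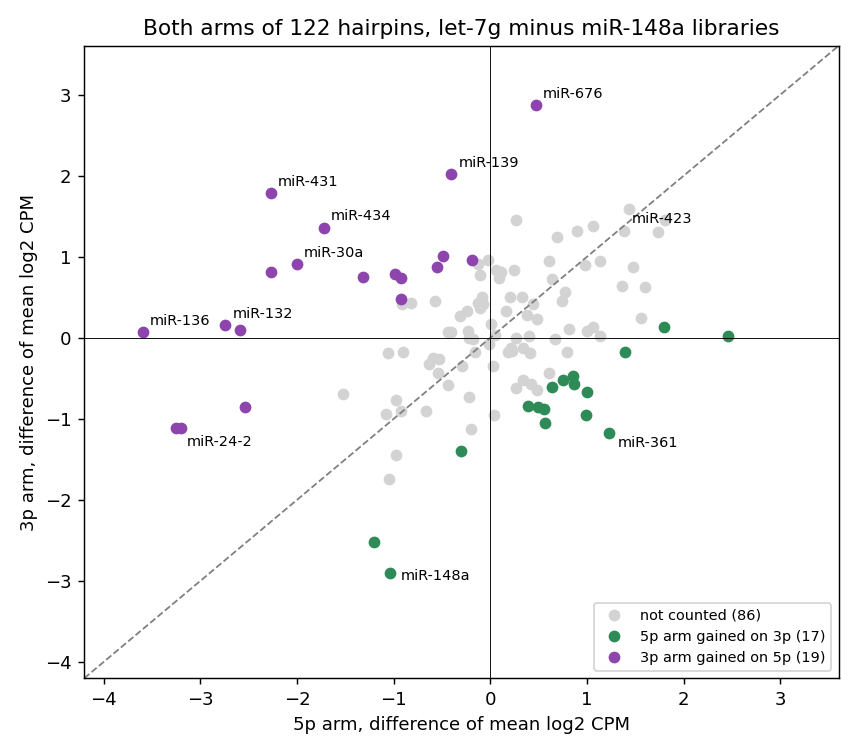
Difference of mean log2 CPM of the 3p arm (vertical axis) against that of the 5p arm (horizontal axis) for 122 hairpins, let-7g minus miR-148a libraries; the dashed line marks an equal difference of both arms. Coloured points are the 36 hairpins whose arm ratio differed, 19 above the line towards 3p (miR-136, miR-434) and 17 below it towards 5p (miR-361, miR-148a). The 3p count of miR-148a entered the rule.

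miR-136, a miRNA transcribed opposite to the imprinted gene Rtl1, had the largest difference in ratio among hairpins with both arms at a mean count of at least 50. miR-136-5p was at 925 CPM in C2, 918 in F1, 721 in E2 and 646 in RE4 against a lowest, median and highest of 7796, 9989 and 10891 CPM in the 8, a difference of -3.59, the most negative of the 431 miRNAs. miR-136-3p was at 216 CPM in C2, 250.1 in F1, 217 in E2 and 198 in RE4 against 167, 219.7 and 233 CPM. The 3p levels overlapped, at 0.07, and the 5p to 3p ratio was 3.25 to 4.27 in the let-7g libraries and 35.1 to 58.2 in the miR-148a libraries. The same held for miR-132, which neuronal activity induces through CREB: miR-132-5p was at 40.3 to 60.1 CPM against 249 to 444 CPM (-2.74), while miR-132-3p, its main strand, overlapped at 0.15.

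In miR-434 the arms differed in opposite directions. miR-434-5p was at 787 CPM in C2, 1048 in F1, 859 in E2 and 815 in RE4 against 2313, 2903 and 3286 CPM, and miR-434-3p was at 11257 CPM in C2, 11111 in F1, 8564 in E2 and 10964 in RE4 against 3848, 3938 and 4444 CPM. Neither arm overlapped, the difference was -1.72 for the first and 1.36 for the second, and the 3p to 5p ratio was 9.96 to 14.3 in the let-7g libraries and 1.29 to 1.84 in the miR-148a libraries. A miRNA predicted by the authors overlaps the sequence of miR-434-5p, was lower too, at -2.19, and can share its reads. miR-431 and miR-361 were the other hairpins with arms counted in opposite directions. miR-431-5p was at 53.8 to 64.9 CPM against 246 to 385 CPM (-2.27) and miR-431-3p, a scarce strand, at 16.4 to 33.1 CPM against 2.24 to 11.6 CPM (1.78). miR-361 went the other way, with miR-361-5p at 238 to 258 CPM against 83.4 to 120.4 CPM (1.23) and miR-361-3p at 255 to 394 CPM against 612 to 886 CPM (-1.17).

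In 3 hairpins, named here after their values were seen, the more abundant arm was 3p in every let-7g library and 5p in every miR-148a library. For miR-30e the 5p to 3p ratio was 0.442 to 0.652 in the let-7g libraries and 1.67 to 4.33 in the miR-148a libraries. It was 0.332 to 0.523 in the let-7g libraries and 1.32 to 1.7 in the miR-148a libraries for miR-329 of the Dlk1-Dio3 region. For miR-24-2 it was 0.192 to 0.323 in the let-7g libraries and 1.05 to 1.37 in the miR-148a libraries, where miR-24-3p is shared with miR-24-1 and was itself lower (-1.11). miR-30a and miR-1298 differed in the same direction without a swap, by -2.91 and -2.68 in log2 ratio.

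Towards the 5p arm, among hairpins with both arms at a mean count of at least 50, miR-361 was followed by miR-126a (1.93), miR-148a (1.86), let-7a (1.67) and miR-125b-1 (1.66). The ratio of miR-148a holds miR-148a-3p, whose count chose the sets, so the rule favoured its place in this order. let-7a-5p, let-7a-1-3p and miR-125b-5p each come from more than 1 hairpin. Against miR-125b-2-3p the log2 ratio of miR-125b-5p differed by 0.91, with overlap between the sets. miR-126a, whose hairpin lies in the endothelial gene Egfl7, had both arms apart between the sets and in opposite directions, miR-126a-5p at 406 to 495 CPM against 187 to 287 CPM (0.98) and miR-126a-3p at 4427 to 6297 CPM against 9626 to 11387 CPM (-0.95), each just under the limit of 1 in size. Without F1 or E3 the first was at 1.05 or 1.04, and without E2 the second at -1.08, past the limit. Hairpins whose arms kept together, chosen after their values were seen, were miR-423, with 1.38 and 1.32, miR-92b, with 1.43 and 1.59, and miR-127, with -0.17 and -0.01. Summed over all annotated miRNAs with a named arm, 5p strands took 67.3% to 70.4% of the count in the let-7g libraries and 50.0% to 54.8% in the miR-148a libraries, although the median difference was 0.09 for 5p and 0.05 for 3p strands. These sums hold let-7g-5p and miR-148a-3p, whose counts chose the sets, and without both the shares were 63.7% to 65.9% and 53.5% to 58.4%.

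miR-676-3p, from an X-linked hairpin in an intron of Eda, was the miRNA with the largest positive difference among those with a mean of at least 100 CPM, at 945 CPM in C2, 995 in F1, 583 in E2 and 771 in RE4 against a lowest, median and highest of 88.3, 115 and 129 CPM in the 8. The lowest of the 4 was well above the highest of the 8, and the difference was 2.87, with 3.17 in C, 3.04 in F, 2.25 in E and 3.03 in RE inside the training groups. miR-125a-5p, let-7a-5p, let-7e-5p, let-7d-5p, miR-135a-5p, miR-92b-3p, let-7b-5p, miR-423-5p (1.38) and miR-434-3p made up the rest of the 10 largest among annotated miRNAs in this direction.

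Among the 10 largest of the annotated miRNAs in the other direction, with the same CPM limit, miR-24-2-5p was at 41.2 CPM in C2, 71.1 in F1, 58.7 in E2 and 76.1 in RE4 against 429.7, 607 and 733 CPM in the 8, a difference of -3.25. miR-218-5p, from introns of the guidance genes Slit2 and Slit3, was at 5431 CPM in C2, 6852 in F1, 5491 in E2 and 5705 in RE4 against 19067, 26089 and 31521 CPM, a difference of -2.13. miR-1298-5p, from an intron of the serotonin receptor gene Htr2c, was at 1045 CPM in C2, 554 in F1, 664 in E2 and 361 in RE4 against 2414, 3819 and 4912 CPM. Its levels spread more widely than the others, with SDs of 0.63 within the 4 and 0.32 within the 8, and still did not overlap at a difference of -2.59. miR-1981-5p (-2.26) and miR-381-3p (-2.06) completed the 10 with miR-136-5p, miR-148a-3p, miR-132-5p, miR-29b-3p and miR-431-5p. Predicted miRNAs were not ranked, and 2 of those that overlap annotated sequences, those of miR-434-5p (-2.19) and miR-330-5p (-2.13), were lower by more than miR-381-3p.

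**Figure D4:**
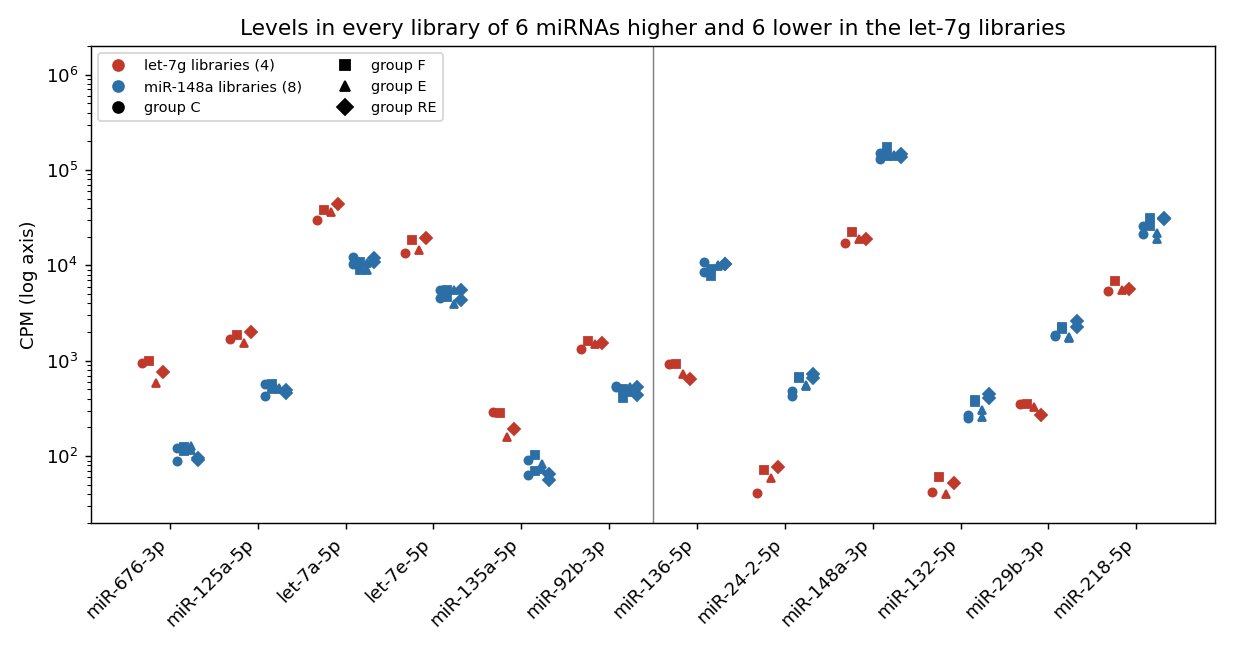
CPM (vertical axis, log scale) in each library of 6 miRNAs higher and 6 lower in the let-7g libraries; points are single libraries, colours the library sets and shapes the training groups. For none of the 12 do the sets overlap: miR-676-3p lies at 583 to 995 CPM against 88.3 to 129, and miR-136-5p at 646 to 925 against 7796 to 10891.

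Other abundant miRNAs overlapped between the sets. miR-128-3p (-0.18), miR-127-3p (-0.01), miR-26a-5p (0.16) and miR-9-5p (-0.08), all among the 10 most abundant, had differences close to 0. miR-127-3p, for example, was at 49888 CPM in C2, 52890.3 in F1, 47448 in E2 and 62365 in RE4 against 48216, 53137 and 60893 CPM in the 8. In the same list miR-381-3p was at 14646 CPM in C2, 18039 in F1, 17020.1 in E2 and 13748 in RE4 against 48761, 69811 and 83174 CPM.

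The Dlk1-Dio3 region on chromosome 12, an imprinted domain whose maternal transcripts carry many miRNAs, had shares of counted members near those of all miRNAs. Of 68 tested members 6 were higher and 8 lower, beside 10.2% and 12.5% of all, and 34 differences were above 0 and 34 below, with a median of 0.01. miR-136-5p at chr12:109595331-109595352, miR-434-3p at chr12:109594565-109594586 and miR-431-5p at chr12:109590459-109590479, all on the plus strand opposite an exon of Rtl1, went in different directions within a short stretch of the region. Of its 5p strands 2 of 31 were higher and 5 lower, and of its 3p strands 4 of 37 were higher and 3 lower.

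**Figure D5:**
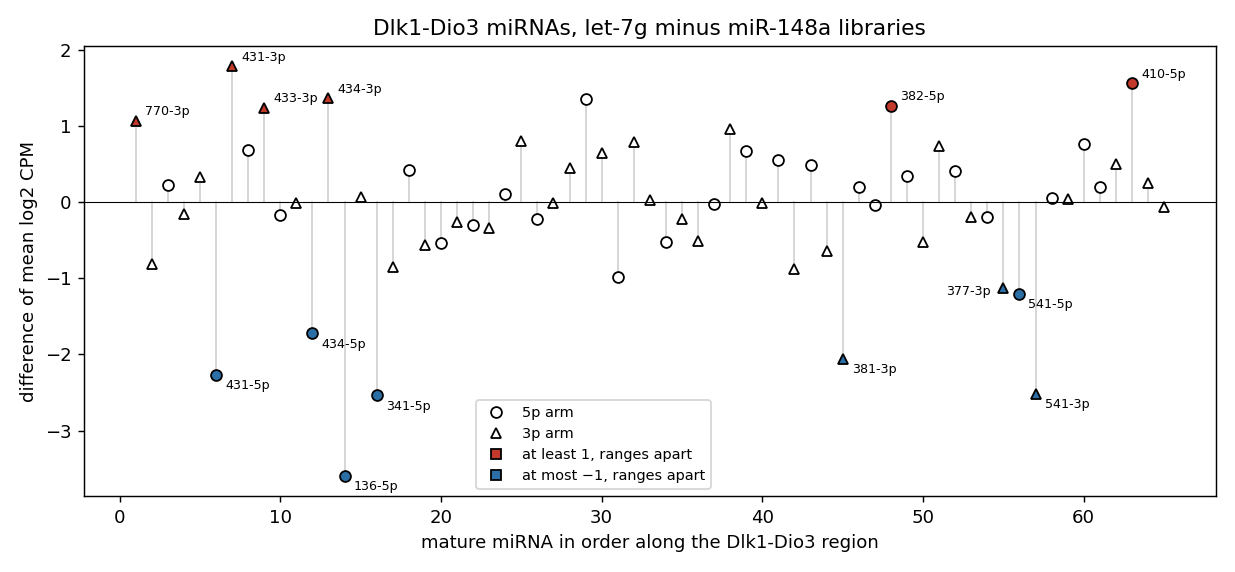
Difference of mean log2 CPM (vertical axis), let-7g minus miR-148a libraries, for the Dlk1-Dio3 miRNAs whose sequence was placed on chromosome 12, in order along the region (horizontal axis). Circles are 5p and triangles 3p strands, filled where counted, and neighbours such as miR-434-5p (-1.72), miR-434-3p (1.36) and miR-136-5p (-3.59) point in opposite directions.

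The other lists are given by their counts beside the 10.2% higher and 12.5% lower of all miRNAs. In the miR-23, miR-27 and miR-24 clusters 1 of 10 was higher, miR-23b-5p (2.45), and 3 were lower, the strands of miR-24, while miR-27a-3p and miR-27b-3p stayed at -0.13 and -0.13. In the miR-15 and miR-16 family 2 of 8 were lower, miR-195a-3p (-1.44) and miR-16-5p, and the median was -0.89. miR-16-5p was at 109 to 142 CPM against 216 to 325 CPM (-1.08), and its difference was just under the limit in size without F1, at -0.999, while miR-195a-5p (-0.98) and miR-322-3p (-0.84) passed it without RE4 (-1.10) and F1 (-1.03). The miR-17 clusters had 2 of 11 higher, both of them strands of miR-92b. The miR-99, miR-100 and miR-125 families had 1 of 8 higher, miR-125a-5p, and 1 lower, miR-99b-3p (-1.06), and the Htr2c intron 1 of 6 higher, miR-1264-5p (1.13), and 1 lower, miR-1298-5p, with miR-1264-3p (0.94) past the limit without RE4, at 1.06. The lists of miR-26 and miR-101 (5 tested), miR-181 (6), miR-103 and miR-107 (2), miR-130 and miR-301 (3), and miR-221 and miR-222 (4) had none in either direction, though miR-221-3p (0.87) passed the limit with library totals, at 1.04. miR-344 had 1 of 6 lower, miR-344c-3p (-1.01). The single tested strand of the miR-10 family, miR-10b-5p, was lower at -1.53, with no tag in E2.

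Among the lists of cell-type markers the neuron-enriched one had the largest summed CPM in both sets. A sum can rest on 1 strand. In the oligodendrocyte list miR-219a-2-3p had a mean of 3285 CPM over the 12 libraries, miR-338-3p 5.32 and miR-219a-5p 5.25. The neuron-enriched list, whose sums of 79595 to 114724 and 103345 to 149568 overlapped, had 1 of 20 higher, miR-128-2-5p (1.39), and 3 lower, miR-132-5p, miR-218-5p and miR-153-3p (-1.67). The erythrocyte list summed to 255 to 1069 against 307 to 677 CPM with 1 of 5 higher, miR-486a-3p (1.46), the choroid plexus list to 1339 to 3084 against 1183 to 1753 with 0 of 6, and the oligodendrocyte list to 1927 to 3635 against 2244 to 5046 with 0 of 3. The leukocyte and microglia list summed to 1305 to 1588 against 1834 to 2214 CPM, with 2 of 7 lower, miR-146a-5p (-1.02) and miR-142a-5p (-1.52). The first of them missed the limit without C2, at -0.84. Of the 7 differences 6 were below 0 and 1 was above, that of miR-150-5p (0.77). The endothelial list summed to 4920 to 6792 against 9841 to 11574 with 0 of 2. Most of this sum was miR-126a-3p (-0.95), while miR-126a-5p of the same hairpin went the other way (0.98). The sums of these 2 lists did not overlap between the sets, and the part of either cell type in the differences was not tested. The mural, epithelial, miR-183, muscle and endocrine lists and the liver miRNA miR-122-5p, with 3, 5, 3, 2, 5 and 1 tested, had none in either direction. miR-143-3p of the mural list, overlapping at -1.39, was counted as lower without E2 (-1.77), miR-96-5p of the miR-183 list, overlapping at -1.93, without F1 (-2.35) or F2 (-2.09), and miR-7a-2-3p of the endocrine list (0.95) as higher without C3 or RE4, at up to 1.08. The sums of these 6 overlapped in all but the liver miRNA, at 15.7 to 20.7 against 5.56 to 15.2 CPM. No listed marker strand in the files was at 0 in every library. Of 43 predicted miRNAs tested, 3 were higher and 12 lower, beside 10.2% and 12.5% of all miRNAs. The 388 annotated miRNAs had 41 higher and 42 lower, so lower ones were more frequent among the predicted. Of the 43, 24 lie in or around an annotated sequence and can share its reads.

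Sequence properties that the rule did not use were weakly related to the differences. Over 388 annotated miRNAs, which share libraries and are not replicates, the Pearson r with the percent of G and C was 0.12 (Spearman rho 0.13), with length -0.01 (0.03) and with mean log2 CPM -0.12 (-0.10). The median difference by first base was 0.20 for A, 0.27 for C, 0.02 for G and -0.06 for U. Of the 118 miRNAs at or above the upper quartile of G and C content 17.8% were counted as higher, against 7.14% of the 112 at or below the lower quartile. Counted as lower were 13 of these 118 and 10 of these 112. Of all 388 annotated miRNAs, 41 were counted as higher and 42 as lower. Weighted by counts, and without the 2 miRNAs of the rule, the mean percent of G and C was 43.5 to 43.8 in the let-7g libraries and 44.2 to 44.7 in the miR-148a libraries. The share of counts on miRNAs that end in G was 5.96% to 7.25% against 9.39% to 11.8%, again without them. Taken singly, without weighting by counts, the 73 annotated miRNAs that end in G had a median difference of 0.03. Of these, 12.3% were counted as higher and 13.7% as lower. No label names a batch.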

How the data were processed

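miRNA libraries of 12 BLA samples (4 training groups of 3 mice) were made by adaptor ligation and size selection. Reads were trimmed by Cutadapt, new miRNAs were predicted by miRDeep2 and alignment to precursors was by Novoalign; the deposited values are tag counts of each mature strand. CASAVA 1.8 and the human build hg38 are named in the submitters' processing notes. A normalized value per miRNA, scaled to 1e+06 tags and rounded by the authors, was used as a score for an alternative alone. The table's 1169 lines included 109 repeats of a sequence with its counts, which were dropped; 1060 miRNAs remained, including 307 predictions. Columns of unknown sample numbered 0.

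Counts were analysed in R 4.3.3 with edgeR 4.0.16 (TMM scaling, filterByExpr with a minimum count of 10, prior count of 2). Library sets were compared without a test, since their own counts chose them, and training groups with the edgeR quasi-likelihood F-test over 3 coefficients and Benjamini-Hochberg adjustment over all miRNAs tested. Arm ratios had a prior count of 2 added to each arm. limma 3.58.1 and DESeq2 1.42.0 served as alternatives. Steps were tested on simulated data. For the training groups the simulation held no difference between the library sets, so it cannot show how that test performs with such a difference. Mice were separate, as the study's methods say; p-values measure the spread between these libraries. Depth exceeded 1e+06 counts in every library, and differences of scarce strands are the least precise.

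Names follow a rule: let-7g-5p and miR-148a-3p; the 10 most abundant miRNAs; the 10 largest differences in each direction without overlap at a mean CPM of at least 100; all let-7, miR-148 and miR-152 strands tested; the 5 largest arm ratios in each direction with both arms at a mean count of at least 50; the ends of the 4 widest seed families; and up to 3 abundant members of each list. The ranking of the largest differences took annotated miRNAs alone. Other names were chosen after their values were seen. Shares of counts without let-7g-5p and miR-148a-3p were added after seeing the data. The members and lists were chosen with earlier results of these data known.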

Additional observations from a re-analysis of the deposited data

Results flagged for a closer look

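Among 226 sets of values examined (each named miRNA in each library set), 11 held a library far from the others by Dixon's criterion; chance gives about 1 in 20. In the let-7g libraries, RE4 was the lowest for miR-431-5p at 53.8 CPM and for miR-152-5p at 3.84 CPM, and the highest for let-7b-3p at 30.8 CPM. E2 was the lowest for miR-434-3p at 8564 CPM, and C2 for miR-29a-3p at 4914 CPM and for miR-130b-5p at 64.2 CPM. In the miR-148a libraries, E3 was the highest for miR-98-3p at 12.3 CPM, RE5 for miR-30a-5p at 22831 CPM, F3 for miR-486a-5p at 123 CPM and RE3 for miR-34c-5p at 891 CPM, and RE3 was the lowest for miR-322-3p at 28.1 CPM. No difference between the library sets was tested.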

How the results depend on the processing

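Under library totals 67 miRNAs were higher, and under the authors' values with a pseudocount of 0.5, 68 were higher and 33 lower (33 lower with a pseudocount of 1 as well). With a size limit of 0.58, 82 were higher. Leaving out each library in turn gave 45 to 54 higher, 47 to 61 lower and 36 to 42 hairpins with a different arm ratio. Of the 98 miRNAs counted, 70 to 98 were counted again under each alternative, the fewest with a mean count of at least 50, which tests fewer miRNAs. For the 116 named miRNAs and the lists, 2389 of 2535 alternative values stayed within the spread between libraries, 146 moved further and 0 of the called ones reversed. Among the named miRNAs, library totals lost the calls of miR-148a-5p, miR-30d-5p, miR-16-5p and miR-146a-5p by size and of miR-10b-5p (-1.44) by overlap, and gained let-7f-5p, let-7b-3p, miR-30a-3p, miR-125b-5p, miR-126a-5p, miR-221-3p and miR-1264-3p. The authors' values (pseudocount 1) changed the same calls except let-7b-3p and lost miR-361-3p (-0.93) too.

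The count of miRNAs that differed between the training groups was 1 with a term for the library set, 8 with no filter, 3 with DESeq2, 3 with the replicate block and the set term together, and 0 to 1 when each library was left out, the 1 (miR-200b-3p, edgeR adjusted p of 0.0326) without F2. With the replicate block alone it was 0, with 4 miRNAs at an unadjusted p under 0.05. No label says what same-numbered libraries share beyond the number. The correlations of their deviations from the group means ran from -0.72 to 0.74, positive where both were in the same library set and negative where they were not. These signs follow the sets, so they cannot show whether the number marks a batch. The cause of the changes in the counts was not tested. Depth limits the scarce strands, such as miR-431-3p and miR-10b-5p.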
